A study of Mus musculus with 12 samples.

Results

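Transcripts of 10 serotonin receptors were measured in the mouse auditory cortex, in slice hemispheres kept in control solution and in the opposite hemispheres bathed in a cocktail that contains serotonin itself. The receptors were chosen by gene symbol, as members of the receptor family that the cocktail's serotonin can reach, and all 10 (Htr1a, Htr1b, Htr1f, Htr2a, Htr2c, Htr3a, Htr4, Htr5a, Htr6 and Htr7) were found among the 20989 loci listed for each library. Of the 10 receptors, 8 had a mean of at least 1 FPKM over the 12 libraries and were tested together with all loci above that level. FPKM counts fragments after division by transcript length and by the number of mapped fragments of the library. Htr1f and Htr4 lay below that level and are given by their values.

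Polyadenylated RNA was sequenced from auditory cortices of 6 C57bl6/J mice aged 4 weeks. Coronal slices of 350 µm recovered for 15 min, were divided at the midline and rested for 45 min in artificial cerebrospinal fluid (aCSF). One hemisphere of each mouse then stayed in plain aCSF for 1 h (control, n = 6), and the other spent 1 h in cocktail aCSF (cocktail, n = 6). The study's methods, but not the sample labels, add a further rest of 1 h in aCSF for both groups before RNA was taken. The cocktail held 100 µM serotonin, 100 µM dopamine, 100 µM DL-norepinephrin, 50 µM carbamoylcholine, 50 µM of the GABA-A receptor blocker bicuculline methiodide and 40 µM ascorbic acid. Serotonin was therefore never given alone, and its share in any difference cannot be told apart from that of the other agents. Both groups had gone through anesthesia, slicing and the same recovery, and every library holds RNA of all cells of the dissected piece. In such bulk samples, fewer cells of a type and less RNA per cell cannot be told apart.

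Serotonin reaches the cortex through fibers from the raphe nuclei, and cortical cells answer it through a family of receptors with different signaling. Receptors coupled to Gi/o (Htr1a, Htr1b, Htr1f, Htr5a) lower cyclic AMP and, for Htr1a, open inwardly rectifying potassium channels, receptors coupled to Gq/11 (Htr2a, Htr2c) activate phospholipase C, receptors coupled to Gs (Htr4, Htr6, Htr7) raise cyclic AMP, and Htr3a forms a cation channel opened directly by serotonin. In the cortex Htr2a is best known from pyramidal neurons, and Htr3a marks a class of inhibitory interneurons of the superficial layers.

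The libraries held 10601067 to 19768881 recovered reads in control and 13544297 to 17643462 in cocktail. The treatment was visible in immediate-early genes: all 8 of a list of activity-induced genes rose with an adjusted p under 0.05, by 0.55 (Egr1) to 0.99 (Fos) on the log2(FPKM + 1) scale. The summed FPKM of 10 markers of excitatory neurons lay between 1401 and 1547 in control hemispheres and between 1329 and 1514 in cocktail hemispheres, led by the vesicular glutamate transporter Slc17a7 at 689 ± 38.0 FPKM in control (mean ± SD, n = 6). The control library of mouse 1 stood apart from the other controls: the chi-square distance per locus was 29.0 to 39.5 to each of them, against 7.32 to 16.7 among the other 5. Among the receptors it held the lowest control value of 6 and the highest of 2 out of 10. Its marker sums for thalamus (16.9), claustrum and deep layers (165), astrocytes (634) and oligodendrocytes (2032) lay below those of the other 11 libraries. For claustrum and deep layers, every control sum (165 to 193) lay below every cocktail sum (201 to 247). That list holds Nr4a2 and Ctgf, the only 2 of its 9 tested genes with an adjusted p under 0.05, both higher in cocktail. Mean Nr4a2 was 52.5 FPKM in control and 91.6 in cocktail, while the leading gene Gng2 was at 58.0 and 59.2. How far Nr4a2 and Ctgf set these sums, and the place of the mouse 1 control below the cocktail libraries, was not tested. The summed FPKM over all loci of the mouse 1 control library, 290155, was also the lowest, against 306085 to 321759. Its scaling factor, the median ratio of loci to their geometric mean over the libraries, was 0.905, against 0.981 to 1.05. Unless stated, values were not rescaled, and how far this scale sets its low sums and receptor levels was not tested. The log2 fold change of each receptor is given with and without mouse 1.

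In control cortex, Htr2a had the highest level of the family, 8.74 ± 1.27 FPKM (SD, n = 6), with 45.1% of the 12032 tested loci and 68.5% of all 20989 loci below it. Htr5a, Htr2c, Htr1b, Htr1a and Htr6 followed between 5.08 ± 0.358 and 3.42 ± 0.515 FPKM, then Htr3a and Htr7 at 2.80 ± 0.577 and 2.76 ± 0.558 FPKM. The lowest were Htr1f at 0.943 ± 0.389 and Htr4 at 0.443 ± 0.138 FPKM. The step from Htr2a down to Htr5a was seen in 6 of 6 control libraries, with ranges that did not overlap and a mean within-library ratio of 1.72. The step from Htr7 down to Htr1f was equally clear, with a ratio of 3.29 in 6 of 6 libraries, and Htr1f exceeded Htr4 in 6 of 6 libraries with a ratio of 2.49, although their ranges over the mice overlapped. Between Htr5a and Htr7 each neighbor in the order exceeded the next in only 3 to 5 of the 6 control libraries and their ranges overlapped, so these neighbors did not differ beyond their spread.

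**Figure D1:**
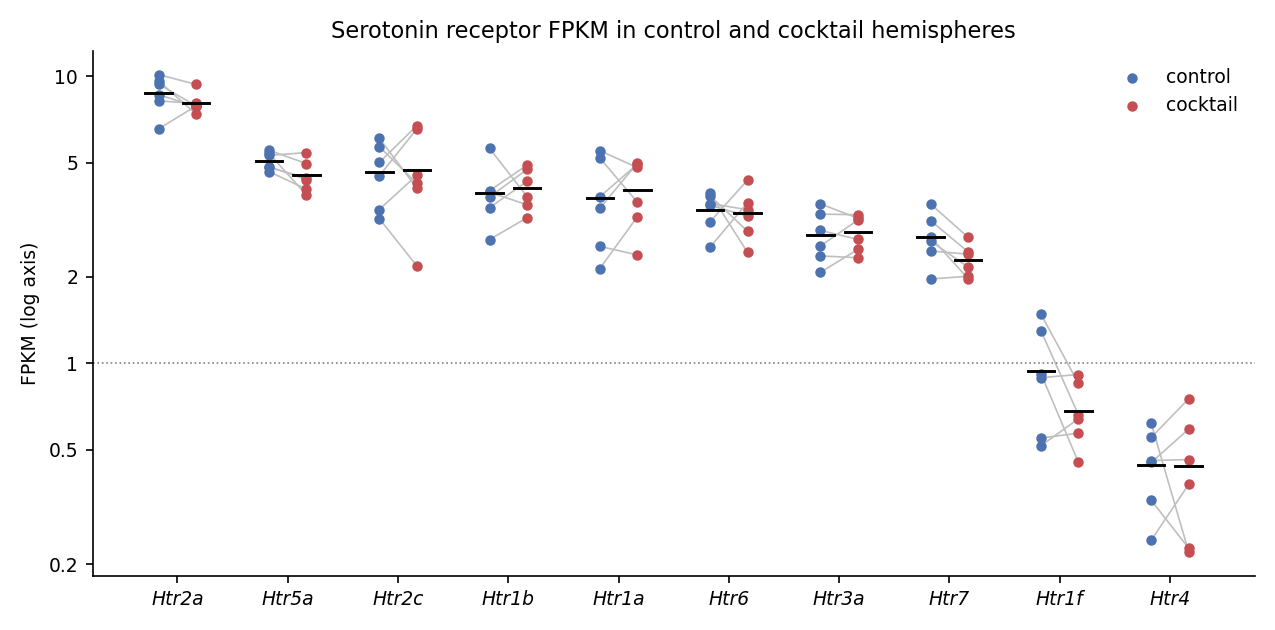
FPKM (log axis) of the 10 serotonin receptors in the 6 control (blue) and 6 cocktail (red) hemispheres, with gray lines joining the hemispheres of a mouse, black bars at the group means and a dotted line at 1 FPKM. Htr2a has the highest mean, 7 receptors follow between 2.29 and 5.08 FPKM, Htr1f and Htr4 lie lowest, and the ranges of both conditions overlap for every receptor.

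The order depended on the division by transcript length. As reads per 1000000 reads, not divided by length, Htr5a came first with 26.7 ± 1.6 and Htr2a second with 22.6 ± 3.26 in control, and only 3 of the 10 receptors kept their rank. The largest shifts were those of Htr7, from rank 8 to rank 5, and of Htr1b, from rank 4 to rank 7. The loci in the files also cover the genes unequally when set against the GENCODE M21 annotation of the same build (mm10, GRCm38). The file's locus held 24.58% of the 4724 annotated exonic bases of Htr1b, 53.0% of those of Htr2a and 58.18% of those of Htr6, but at least 95.68% of those of the other 7 receptors. How far this sets the FPKM of Htr1b, Htr2a and Htr6 was not tested, and it is the same in both conditions.

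Grouped by signaling, receptors coupled to Gi/o made up 37.6 ± 3.02% of the family's summed FPKM in control and 38.0 ± 2.73% in cocktail. Both Gq/11 receptors together made up 36.5 ± 3.88% and 36.5 ± 3.55%, and the 3 Gs receptors 18.2 ± 1.16% and 17.3 ± 1.39%. The channel subunit Htr3a held 7.63 ± 1.19% and 8.22 ± 1.23%. The summed FPKM of all 10 receptors was 36.5 ± 2.96 in control (range 32.3 to 40.0) and 34.9 ± 3.27 in cocktail (range 31.0 to 39.3), so the ranges overlapped. The mean share of each class differed between the conditions by less than 1 SD.

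In the hemispheres exposed to the cocktail for 1 h, 0 of the 8 tested receptors passed an adjusted p of 0.05 in limma's test, in which 1.5% of the 12032 loci tested passed (180 loci, 147 higher and 33 lower). At an unadjusted p under 0.05, 2 of 8 passed, Htr5a and Htr7, against 8.05% of all loci, and both were lower, against 2.8% of loci that passed in that direction. Without mouse 1, 4 of 8 had an unadjusted p under 0.05 (8.87% of all loci), with Htr2a joining Htr5a and Htr7 on the lower side (3 of 8, against 4.06% of loci) and Htr1b on the higher side, and again 0 of 8 passed after adjustment. Htr2a, Htr5a and Htr7 were lower in at least 5 of 6 mice, 3 of 8 receptors against 13.6% of loci. The median log2 fold change was -0.03 over the 8 receptors and 0.0076 over all loci. A missed threshold does not show equal levels, so the intervals are given for each receptor: all 8 of the 95% intervals lay within 0.5 of 0 on the log2(FPKM + 1) scale, as for 98.3% of loci, and on that scale they ran from 0.797-fold (lower limit of Htr7) to 1.25-fold (upper limit of Htr1a).

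**Figure D2:**
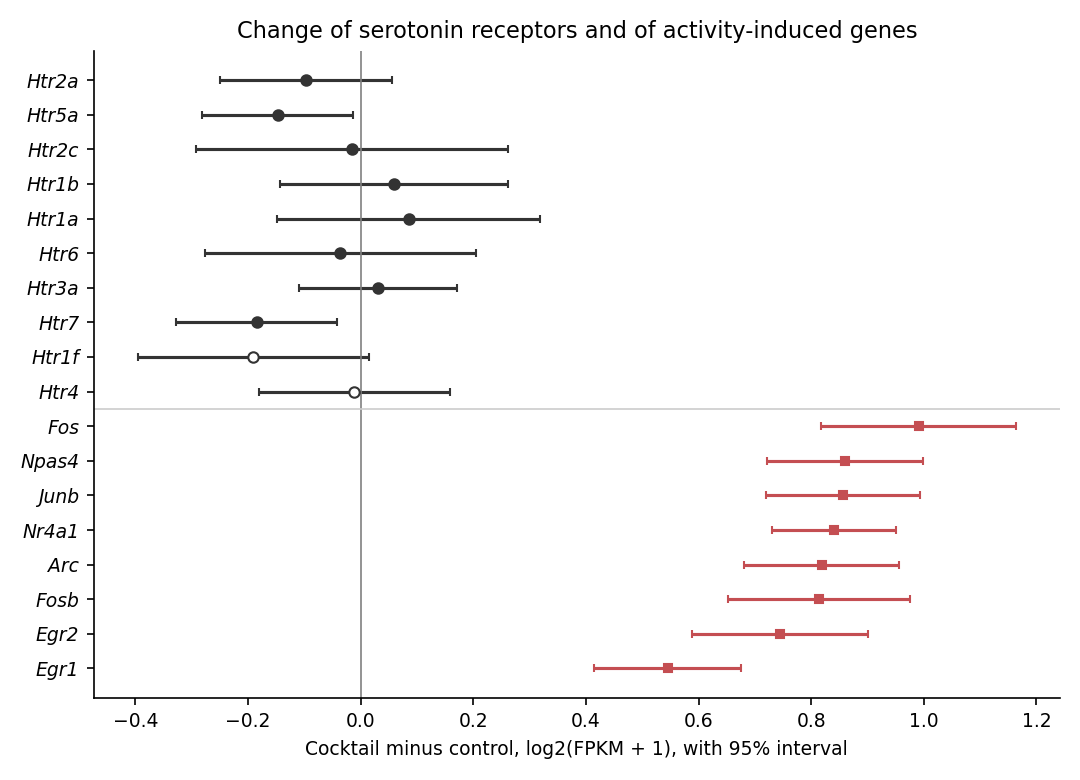
Difference between cocktail and control on the log2(FPKM + 1) scale (x axis) for each serotonin receptor (circles, with open circles for the receptors under 1 FPKM, taken from a fit without that filter) and for 8 activity-induced genes (red squares), with 95% intervals from limma with the mouse as a block. The receptors lie between -0.19 (Htr1f) and 0.09 (Htr1a), and the activity-induced genes between 0.55 and 0.99.

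Htr2a, a Gq/11-coupled receptor (chromosome 14, positions 74640840 to 74706859, plus strand), had 6.55, 8.98 and 10.1 FPKM as its lowest, median and highest control value and 7.37, 7.87 and 9.35 FPKM in cocktail, from 266 to 403 reads per library. The control of mouse 1 was the lowest of the 12 libraries, and the cocktail values lay inside the control range. The log2 fold change was -0.10 (95% interval -0.25 to 0.06, limma adjusted p = 0.817), and 5 of 6 mice were lower. Without mouse 1, the only mouse with a higher cocktail value, it was -0.16 (-0.29 to -0.04, limma adjusted p = 0.331) with 5 of 5 mice lower.

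Htr2c, the other Gq/11-coupled receptor, whose transcript is known for RNA editing (chromosome X, positions 146962513 to 147197277, plus strand), had 3.19, 4.75 and 6.07 FPKM as its lowest, median and highest control value. In cocktail the values were 2.18, 4.37 and 6.72 FPKM, from 124 to 445 reads per library. Both ends of the range over the 12 libraries were cocktail hemispheres, mouse 2 lowest and mouse 6 highest, 3.07-fold apart, so the groups overlapped fully. The log2 fold change was -0.01 (-0.29 to 0.26, limma adjusted p = 0.991), and it was -0.11 (-0.39 to 0.17, limma adjusted p = 0.846) without mouse 1. This average covered opposite moves: the within-mouse differences were 0.46, 0.36 and 0.32 in mice 1, 6 and 4, and -0.35, -0.40 and -0.48 in mice 5, 2 and 3. An exact permutation test that flips the sign of each mouse's difference (two-sided, 6 mice) gave p = 0.875.

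Htr1a, the Gi/o-coupled receptor that also serves as autoreceptor on raphe neurons, is annotated with a single exon (chromosome 13, positions 105443693 to 105448133, plus strand). Its lowest, median and highest values were 2.14, 3.63 and 5.49 FPKM in control and 2.38, 4.22 and 4.97 FPKM in cocktail, from 151 to 368 reads. Control values spanned the whole cocktail range, and the lowest (mouse 1) and highest (mouse 4) of the 12 libraries were both controls, 2.57-fold apart. Its log2 fold change was 0.09 (-0.15 to 0.32, limma adjusted p = 0.899), with 3 mice higher and 3 lower, and 0.02 (-0.22 to 0.25) without mouse 1.

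Htr1b, the Gi/o-coupled receptor of axon terminals (chromosome 9, positions 81631392 to 81632552, minus strand), had 2.70, 3.86 and 5.60 FPKM in control and 3.21, 4.05 and 4.90 FPKM in cocktail as lowest, median and highest value. It rested on 35 to 107 reads per library. The control of mouse 1 was the highest of all 12 libraries, and the cocktail values lay inside the control range. Cocktail minus control gave a log2 fold change of 0.06 (-0.14 to 0.26, limma adjusted p = 0.923) with 4 of 6 mice higher, and 0.16 (0.02 to 0.31, limma adjusted p = 0.492) with 4 of 5 higher without mouse 1. With voom on the recovered reads of all 6 mice the value was -0.01, on the other side of 0. An antisense transcript, D430036J16Rik, shares 852 exonic bases with Htr1b, and the strand setting of the counting is not given in the sources used here, so reads of both could not be separated.

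Htr5a, a Gi/o-coupled receptor found mainly in the nervous system (chromosome 5, positions 27841947 to 27855086, plus strand), had the smallest relative spread in control, 4.65, 5.07 and 5.52 FPKM as lowest, median and highest value. The cocktail values were 3.86, 4.39 and 5.41 FPKM, and reads per library ran from 302 to 504. Of the 6 cocktail values, 4 lay below the control range, and those of mouse 2 and mouse 6 lay inside it. The log2 fold change was -0.15 (-0.28 to -0.01, unadjusted p = 0.0342, adjusted p = 0.527, limma), with 5 of 6 mice lower. The exact permutation of signs gave p = 0.0625, where 0.03125 is the smallest p that 6 mice allow. Without mouse 1 the log2 fold change was -0.14 (limma adjusted p = 0.559).

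Htr1f, a low Gi/o-coupled receptor (chromosome 16, positions 64924729 to 65105784, minus strand), had 0.516, 0.906 and 1.48 FPKM in control and 0.452, 0.652 and 0.914 FPKM in cocktail as lowest, median and highest value, from 14 to 52 reads. The groups overlapped, with mice 4 and 5 highest in control. In a fit without the filter on low values the log2 fold change was -0.19 (-0.40 to 0.01, limma adjusted p = 0.661), with 3 mice lower and 3 higher, and the mean difference was -0.25 without mouse 1. On recovered reads, voom gave -0.40 (-0.87 to 0.08, adjusted p = 0.523), an interval that at this depth leaves room for a large fall as well as for none.

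Htr7, a Gs-coupled receptor (chromosome 19, positions 35958729 to 36057360, minus strand), had the largest difference of the 8 tested receptors in the direction of lower levels. Its lowest, median and highest values were 1.97, 2.70 and 3.58 FPKM in control and 1.97, 2.28 and 2.74 FPKM in cocktail, from 87 to 152 reads. The groups overlapped in the lower part of the control range. Only mouse 1, the lowest control, was higher in cocktail, by 0.02 on the log2(FPKM + 1) scale. The ratio of the mean FPKM in cocktail to that in control was 0.829, and the log2 fold change was -0.18 (-0.33 to -0.04, unadjusted p = 0.0160, adjusted p = 0.384, limma). The exact permutation of signs, on differences that were not rescaled, also gave p = 0.0625. With each library divided by its scaling factor, lowest for the control of mouse 1, the log2 fold change was -0.19 (limma adjusted p = 0.244). Without mouse 1 the log2 fold change was -0.23 (-0.37 to -0.09, limma adjusted p = 0.191) with 5 of 5 mice lower. Over the alternatives that tested Htr7, its limma adjusted p ranged from 0.191 to 0.999.

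Htr6, a Gs-coupled receptor found largely in the brain (chromosome 4, positions 139061409 to 139074789, minus strand), had 2.54, 3.57 and 3.90 FPKM in control and 2.43, 3.34 and 4.35 FPKM in cocktail as lowest, median and highest value. It was the tested receptor with the fewest reads, 26 to 59 per library. The cocktail range enclosed the control range. Htr6 had a log2 fold change of -0.04 (-0.28 to 0.20, limma adjusted p = 0.967), and it was 0.06 (-0.16 to 0.28) without mouse 1, whose cocktail hemisphere was the lowest of all libraries.

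Htr4, the third Gs-coupled receptor (chromosome 18, positions 62324204 to 62467802, plus strand), had 0.242, 0.455 and 0.618 FPKM in control and 0.221, 0.421 and 0.752 FPKM in cocktail as lowest, median and highest value. These values rested on 13 to 46 reads per library and the groups overlapped. Without the filter the log2 fold change was -0.01 (-0.18 to 0.16, limma adjusted p = 0.989), with a mean difference of -0.04 without mouse 1, and voom on the reads gave an interval of -0.57 to 0.57, so a change of moderate size was not detectable at this depth.

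Htr3a, the channel subunit (chromosome 9, positions 48899213 to 48911099, minus strand), had 2.07, 2.73 and 3.59 FPKM in control and 2.33, 2.93 and 3.29 FPKM in cocktail as lowest, median and highest value, from 59 to 101 reads. The cocktail range lay inside the control range. For Htr3a the log2 fold change was 0.03 (-0.11 to 0.17, limma adjusted p = 0.949), although 4 of 6 mice were lower, and it was -0.000592 without mouse 1. The partner subunit Htr3b was listed with 0 to 2 reads per library. A list of 11 genes used as markers of the interneuron class that carries Htr3a summed to between 603 and 656 FPKM in control. In cocktail the sum was between 563 and 689 FPKM. It was led by Cck, a neuropeptide, at 349 ± 24 FPKM in control. Cck, Npy (106 FPKM) and Lamp5 (98.3 FPKM) made up most of the control sum, with Vip at 24.6 and Ndnf at 0.771 FPKM. How far these leading genes come from other cells of the bulk tissue, and whether their sum follows the class, was not tested. Of the list's 9 tested genes 0 passed, against 1.5% of all loci tested.

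**Figure D3:**
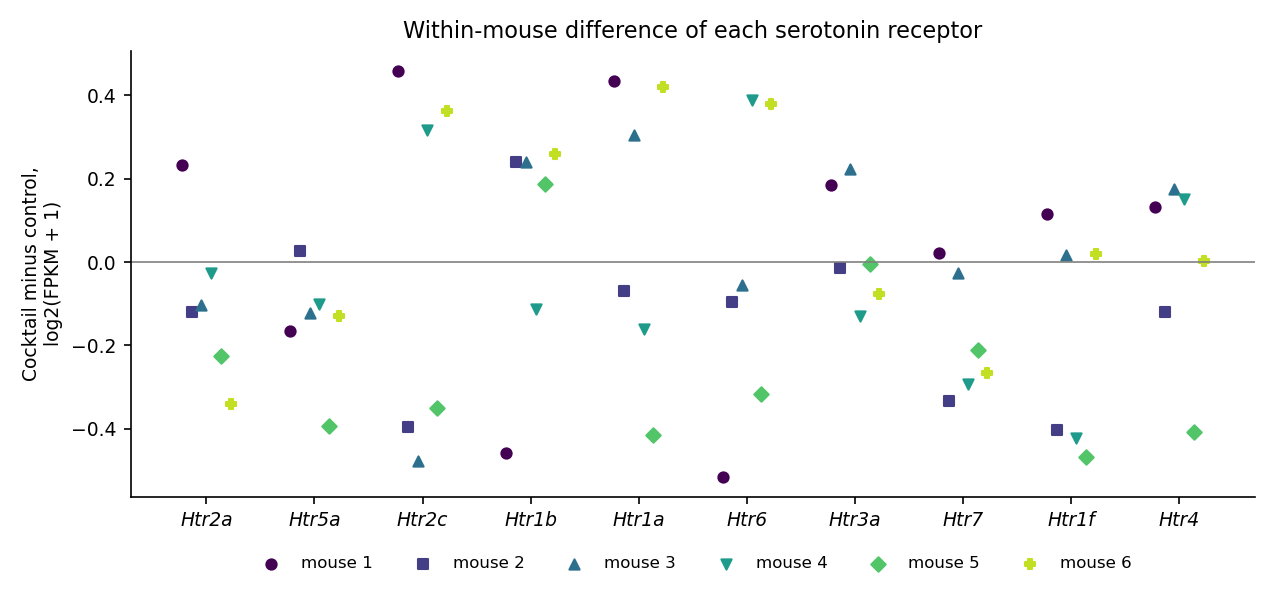
Cocktail minus control within each of the 6 mice, on the log2(FPKM + 1) scale (y axis), for each serotonin receptor (x axis, ordered by control level), with a symbol and color for each mouse. Htr5a, Htr7 and Htr2a lie below 0 in 5 of 6 mice, while Htr2c and Htr1a have 3 mice on either side of 0 at distances of up to 0.48 and 0.43.

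Some of this scatter exceeded what read numbers give. The SD of the within-mouse log2 FPKM ratio was 0.535 for Htr2c, 4.13 times the 0.130 that Poisson counting of its reads would give, and 0.447 for Htr1a, 3.49 times its counting SD. Among loci with 1/1.5 to 1.5 times the mean reads, the median of this ratio was 1.44 (quartiles 1.09 to 1.87, 2536 loci) for Htr2c and 1.42 (1.08 to 1.84, 2499 loci) for Htr1a, so both receptors lay above the upper quartile of loci of like depth. Without mouse 1 the ratio was 3.81 for Htr2c and 3.30 for Htr1a. Htr2a had a ratio of 1.93, close to the upper quartile of 1.94 of the 2653 loci of like depth, and 1.19 without mouse 1. Htr6 had a ratio of 1.43, just above the upper quartile of 1.39 of its 506 loci of like depth, and 1.20 without mouse 1. The ratio of Htr5a, 1.58, was close to the median of 1.55 of its loci of like depth. For Htr7 (1.08) and Htr3a (0.872) the spread between mice was close to that of counting. No test was made of these ratios, which describe 6 pairs of hemispheres.

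**Figure D4:**
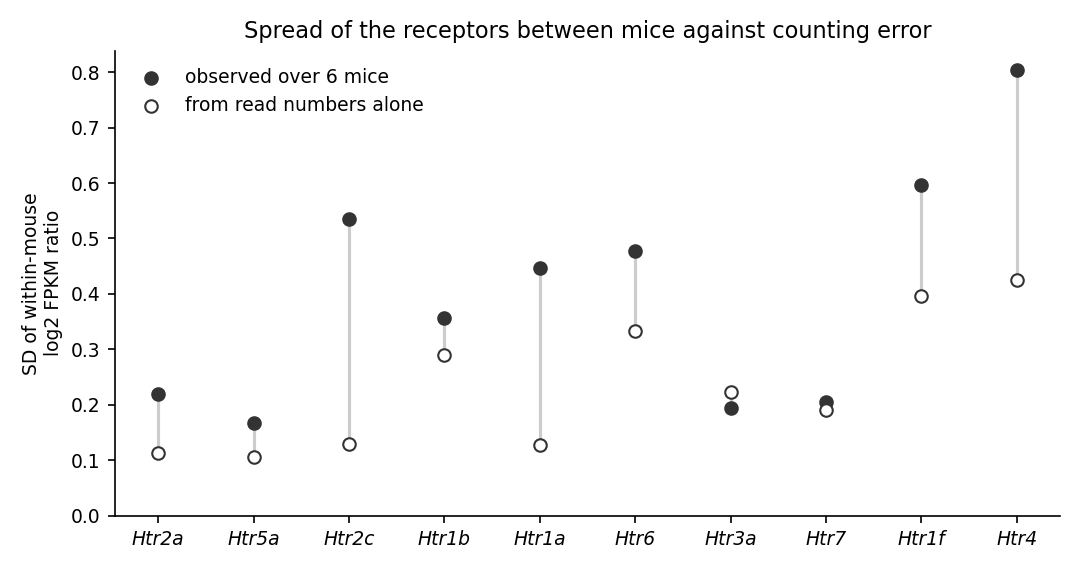
SD over 6 mice of the within-mouse log2 FPKM ratio of cocktail to control (y axis) for each serotonin receptor, as observed (filled circles) and as Poisson counting of the recovered reads alone would give (open circles). The widest gaps relative to counting are those of Htr2c (0.535 against 0.130) and Htr1a (0.447 against 0.128), while Htr3a and Htr7 lie close to their counting SD.

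Regional markers of neighboring tissue varied between libraries, and the receptors were set beside them. The hippocampus borders the dissected cortex, and 10 hippocampal markers summed to between 11.2 and 41.6 FPKM in control (median 29.9) and between 10.9 and 50.1 FPKM in cocktail (median 31.6), with 3 of the 10 markers at 0 in at least 1 library and 0 at 0 in all of them. None of its 5 tested markers passed, against 1.5% of all loci tested. The leading one, Fibcd1, ranged from 2.05 to 24.8 FPKM over the 12 libraries. With group means removed, Pearson's r over the 12 libraries between the log2 levels of receptor and marker sum was 0.63 for Htr4, 0.52 for Htr1f, 0.50 for Htr1a, 0.49 for Htr2c and -0.46 for Htr5a, and 0.65, 0.78, 0.79, 0.52 and -0.41 without mouse 1. Over the 12 libraries, Htr1a, Htr2c and Htr1f went with another marker sum as closely or more closely. With endothelial and mural cells, r was 0.76 for Htr1a and 0.52 for Htr2c (0.81 and 0.62 without mouse 1). With astrocytes it was 0.73 for Htr1f, but 0.68 without mouse 1, below the 0.78 with hippocampus. For Htr4, r with endothelial and mural cells was 0.59, below that with hippocampus, and 0.67 without mouse 1. The astrocyte sum had an r of 0.75 with Htr2a and -0.73 with Htr1b, against 0.31 and -0.42 without mouse 1. These points share mice, libraries and depth, and the part of any of these tissues in the receptors' spread was not tested. In choroid plexus Htr2c is known to be abundant. Of the markers of that tissue, Otx2 and Ttr were at 0 in 12 and 11 of the 12 libraries, the highest Ttr value was 0.0455 FPKM, and the sum of 10 markers, led by Kl, lay between 1.76 and 2.60 FPKM in control and between 1.53 and 2.80 FPKM in cocktail. This sum had an r of 0.43 with Htr2c, 0.76 with Htr1a and 0.68 with Htr7 (0.54, 0.70 and 0.56 without mouse 1), and its part in these levels was not tested.

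**Figure D5:**
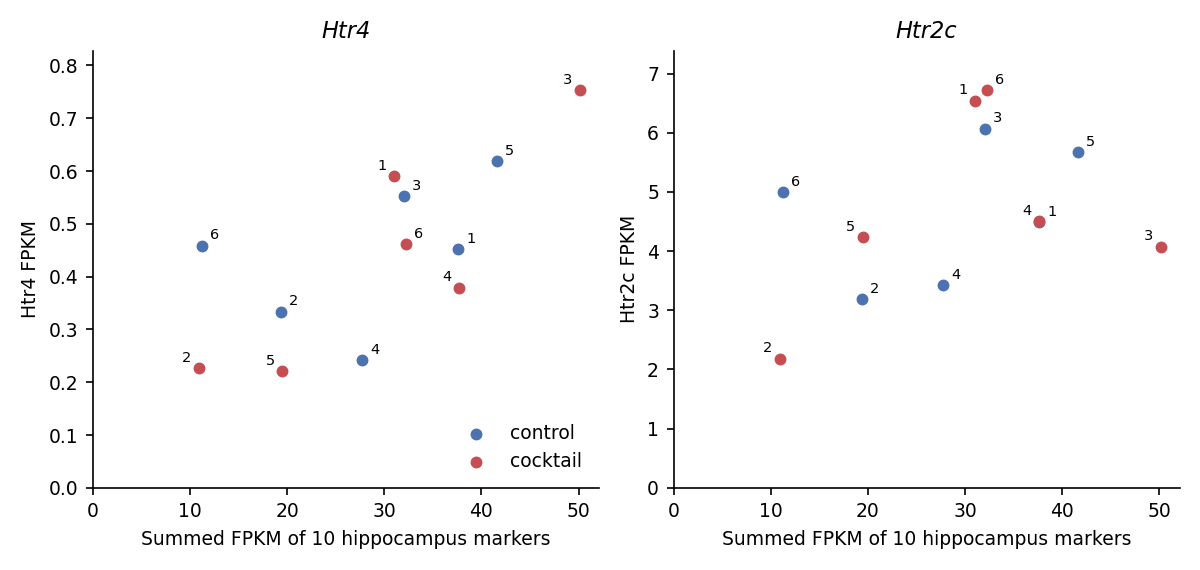
FPKM of Htr4 (left) and Htr2c (right) against the summed FPKM of 10 hippocampal markers in each library, with control in blue, cocktail in red and the mouse number beside each point. Both receptors were lowest or near their lowest in the cocktail hemisphere of mouse 2, where the marker sum was 10.9, and Htr4 was highest in the cocktail hemisphere of mouse 3, where the sum was 50.1. Htr2c was at 4.08 FPKM in that hemisphere, below its cocktail mean, and at 5.00 FPKM in the control of mouse 6, above its control mean, where the sum was 11.2.

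Among the further marker lists given here, calls were found in a single list, while 1.5% of all loci tested passed. Of the 9 tested markers of claustrum and deep cortical layers, Nr4a2 and Ctgf rose, from 52.5 ± 4.94 to 91.6 ± 14.4 FPKM and from 12 ± 2.45 to 16.6 ± 3.02 FPKM (limma adjusted p = 7.7e-05 and 0.0132). Nr4a2 is a nuclear receptor that is also an immediate-early gene, and Ctgf is a secreted matrix protein. The leading gene of that list, Gng2, was at 58.0 ± 4.33 FPKM in control and 59.2 ± 2.15 in cocktail. Lists for Pvalb and Sst interneurons (led by Sst), thalamus (Rgs16), astrocytes (Slc1a2), oligodendrocytes (Mbp), endothelial and mural cells (Cldn5) and blood (Hbb-b1) had 0 calls among 6, 6, 7, 7, 7 and 1 tested genes.

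Beyond the 10 receptors, 4 further members of the family were listed. Htr5b, a paralog of Htr5a, had 1.59 ± 0.500 FPKM in control and 1.46 ± 0.439 in cocktail from 15 to 80 reads, with a log2 fold change of -0.06 (-0.29 to 0.16, limma adjusted p = 0.927). Htr1d, a Gi/o-coupled receptor, had 0.222 ± 0.0665 and 0.297 ± 0.0443 FPKM from 3 to 11 reads, higher in 5 of 6 mice, with an adjusted p of 0.473 in the fit without filter (limma). Htr2b and Htr3b were listed with 0 to 5 and 0 to 2 reads per library, too few for a comparison.

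The genes of the signaling chain behind the receptors, given here and in the next paragraph, likewise gave no call. Of all loci tested 1.5% passed, and at that share lists this short would hold few calls or none. All 9 G protein alpha subunits were tested and 0 passed, with a median log2 fold change of 0.03 and the largest difference in Gnai3, an inhibitory subunit (0.12, limma adjusted p = 0.793). Of 18 enzymes of the second messenger pathways, 0 passed, the largest difference being that of Rapgef4, a cyclic AMP sensor, at 0.12 (limma adjusted p = 0.691). Of 12 receptor kinases, arrestins and receptor partners, 0 passed, with Cav1, the membrane scaffold caveolin, at 0.12 (limma adjusted p = 0.762).

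Among 8 tested of 9 effector ion channels, 0 passed, and Kcnq3, a subunit of the muscarine-sensitive potassium channel, had the largest difference at 0.16 (limma adjusted p = 0.783). The 3 listed genes of the adenosine deaminase family, which has members that edit RNA such as that of Htr2c, gave 0 calls. Adarb1 had the largest difference at -0.06 (limma adjusted p = 0.825). Of 12 genes for synthesis, transport and breakdown of serotonin, 5 were tested and 0 passed. Ddc, the decarboxylase that makes serotonin and dopamine, was highest in difference, with 1.49 ± 0.219 FPKM in control and 1.85 ± 0.113 in cocktail, higher in 5 of 6 mice (0.20, limma adjusted p = 0.276). The transporter Slc6a4 and the synthesizing enzyme Tph2, named after their values were seen, were at 0.0122 ± 0.0135 and 0.409 ± 0.140 FPKM in control, as markers of raphe neurons whose cell bodies lie outside the cortex.

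The transcripts most like each receptor across the 12 libraries were sought among 11704 loci with at least 20 reads in every library, by Pearson's r of log2(FPKM + 1) after group means were removed. Htr1a was followed most closely by Exoc6b (r = 0.988, and 0.993 without mouse 1), Adprh (0.962) and Mpped2 (0.954), and Htr3a by Fam13a (0.970), Mrpl45 (0.951) and Tnip2 (0.950). For Htr2a the nearest were Ppid (0.954), Swap70 (0.952) and Gtf3c6 (0.938), which dropped to 0.882, 0.889 and 0.876 without mouse 1. Htr7 was nearest to Atf7ip (0.947), D1Ertd622e (0.941) and L3mbtl3 (0.931), and Htr1b to Foxk1 (0.937), Cabin1 (0.894) and Slc30a3 (0.875). Htr2c was nearest to Nov (0.898), Tmem136 (0.896) and Gprc5b (0.864), Htr5a to Ccdc64 (0.893), Zfp955a (0.861) and Cog8 (0.850), and Htr6 to Arhgap27 (0.855), Cdh4 (0.802) and Kcng2 (0.762). These are the highest of many values over 12 libraries that share mice, depth and composition, and they carry no test.

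Between the receptors themselves, the closest pair was Htr1a and Htr3a (r = 0.855, and 0.790 without mouse 1), followed by Htr7 with Htr3a (0.763 and 0.612) and Htr1a with Htr7 (0.730 and 0.586). The most opposed pair over the 12 libraries was Htr1b and Htr3a (-0.666 and -0.566), whereas without mouse 1 it was Htr5a and Htr3a (-0.183 and -0.597). The relation of Htr1b to Htr2a was -0.615 with all libraries and -0.237 without mouse 1. These values, too, describe 12 libraries of 6 mice and were not tested.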

How the data were processed

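RNA of 12 auditory cortices (6 control, 6 cocktail hemispheres, paired by the mouse number in the labels) was sequenced as single reads of a polyadenylated, strand-specific library. The authors removed ribosomal reads with BWA 0.6.1, aligned the rest to mm10 with TopHat 1.4.1, allowing 1 placement, and estimated FPKM with Cufflinks 1.3.0 with bias correction and a denominator of fragments on protein-coding RefSeq genes. The authors also deposited a comparison table from HTSeq 0.6.1p1 and DESeq2 1.6.3, which holds a mean normalized count per gene (a signal) beside fold changes and p-values. Only that mean count was used, as a check. The strand setting of the counting is not given in the sources used here.

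The deposited FPKM values were used as they stood. Reads were recovered from the upper interval limit, which lies 2 Poisson SD above the FPKM: 82.8% of 36412 values under 20 reads were whole to within 0.05, and the mean reads of the 10 receptors were 0.937 to 1.02 times the authors' mean count. All receptor values had the status OK. Intervals from reads cover counting error only.

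Loci with a mean of at least 1 FPKM (12032 of 20989) entered limma 3.58.1 (R 4.3.3) on the log2(FPKM + 1) scale. The model held treatment and, as a block, the mouse, the prior variance followed a trend, and p-values were adjusted after Benjamini and Hochberg with a threshold of 0.05. For low genes this scale makes a change look smaller than it is. For single genes, signs of the 6 within-mouse differences were also permuted exactly (two-sided). Same-mouse libraries deviated together from their group means (r = 0.216 to 0.406 in 6 pairs, against -0.42 to 0.445 in 30 others). The chi-square distance per locus between libraries of a group was at least 7.32, so none was a copy. The fit was tested on simulated data.

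The receptors, the gene lists and the tests were chosen with earlier results of these data known. The rule for named genes took all 10 receptors, the other listed family members, the called genes of each pathway list or otherwise its largest difference, the leading gene and the sum of each marker list, and the 3 loci most like each tested receptor. Alternatives were another pseudocount (0.1), no filter or a mean of at least 5 FPKM, other scalings, no trend, no mouse block, voom on recovered reads, and leaving out each mouse. Voom on loci with a mean of at least 10 reads was added after seeing the data. Positions are those of the files, counted from 1. Plots were made in Python 3.11.15 using matplotlib 3.10.9. Sequences were not used, and some marker results are not reported here.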

Additional observations from a re-analysis of the deposited data

Results flagged for a closer look

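The Htr2a level of the cocktail hemisphere of mouse 3 was 9.35 FPKM, apart from the other 5 cocktail hemispheres, which lay between 7.37 and 8.03 FPKM. Its gap to the nearest of them was 0.667 of the group's range, above Dixon's 95% critical value for 6 samples. The control hemisphere of the same mouse also had the highest Htr2a level of its group. Such a distance was found in 1 of 30 groups of values examined, where chance gives about 1.5.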

How the results depend on the processing

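The number of receptors called was 0 in each of 15 alternatives. With a mean of at least 5 FPKM, Htr2a was the only receptor tested. Htr1f and Htr4 were tested only without the filter and with voom on loci of at least 10 reads. The number of loci called, 180 with the mouse as a block, was 88 with no replicate block and 104 to 181 when 1 mouse was left out, with 104 without mouse 4. The control order of the 10 receptors was kept at 3 ranks with reads per 1000000 not divided by length, and at 8 to 10 ranks when 1 mouse was left out.

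Of 129 refitted log2 fold changes of receptors, 116 kept their sign and 13 turned, none of them called. With voom Htr1b was -0.0102 and Htr2c 0.0479, and with voom on loci of at least 10 reads -0.0187 and 0.0477. Leaving out 1 mouse gave -0.109 to 0.0778 for Htr2c, -0.121 to 0.0594 for Htr6, -0.00826 to 0.0619 for Htr3a and -0.0481 to 0.0683 for Htr4. Over the alternatives that tested them, Htr2a, Htr5a and Htr7 stayed below 0 (-0.16 to -0.05, -0.18 to -0.10 and -0.25 to -0.15) and Htr1a above it (0.02 to 0.19). The cause of these moves was not tested. Counting error limits Htr1b, Htr6, Htr1f and Htr4 most, since they had at most 107, 59, 52 and 46 reads in a library.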
